A study of Mus musculus with 19 samples.

Results

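Dual-specificity phosphatases of MAP kinases are enzymes that switch off the kinases ERK, p38 and JNK, and 6 genes of this family were chosen by name for their transcript levels in mouse medial amygdala: Dusp1, Dusp4, Dusp5, Dusp6, Dusp10 and Dusp14. All 6 were present among the 16233 genes of the table of all cells and among the 15299 genes of the table that compares dissociations, where 17 other dual-specificity phosphatase genes were also measured in the first table. Transcripts were counted by Drop-seq, in which single cells are caught in droplets with barcoded beads and each transcript is tagged with a unique molecular identifier (UMI). The tissue came from male C57BL/6J mice kept on a reversed light cycle.

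The libraries prepared with Act-Seq, a dissociation protocol designed to limit transcription while tissue is taken apart, came from mice after seizure (2 libraries), after immobilization, an acute stress (4), after exposure to odors (4), and from naive mice (6). A further Act-Seq library (1) came from a saline-injected control. Conventional dissociation was used for 1 library after seizure and 1 saline-injected control. The sources used here do not give the agent behind the seizures, and the all-cell table sets seizure libraries against naive ones with no injected control, so seizure and any injection cannot be told apart there. Mice were 9 weeks old for the libraries seizure 1, odor 1 and 2, and immobilization 2 and 3, and 8 weeks old for the rest. The labels do not tie libraries to animals, and p-values therefore describe the spread between libraries, part of which may be technical.

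MAP kinases are activated by phosphorylation of a threonine and a tyrosine in their activation loop, and dual-specificity phosphatases remove both phosphates. Several of these phosphatase genes are themselves transcribed rapidly after the same kinases are activated, which makes them part of a negative feedback. Dusp1 encodes a nuclear phosphatase that acts on p38, JNK and ERK, Dusp4 a nuclear phosphatase of ERK and JNK, and Dusp5 a nuclear phosphatase selective for ERK. Dusp6 encodes a cytoplasmic phosphatase of ERK, Dusp10 a phosphatase of p38 and JNK, and Dusp14 a small atypical member that lacks the kinase-binding domain of the others.

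On the GRCm38 build with GENCODE annotation, Dusp1 lay on the minus strand at chr17:26505590-26562128, a span that overlaps Ergic1 on the opposite strand, while its RefSeq span was chr17:26505591-26508472 and overlapped no gene. The plus-strand genes were Dusp4 at chr8:34807297-34819894, Dusp5 at chr19:53529109-53542431, Dusp6 at chr10:99263231-99267489 and Dusp10 at chr1:184013302-184075636, and Dusp14 lay on the minus strand at chr11:84048041-84069261. Dusp5 overlaps an antisense transcript and Dusp10 overlaps 1700056E22Rik on the opposite strand in GENCODE, and Dusp6 overlaps Gm34921 in RefSeq. The sources used here do not say whether reads were counted by strand, so these overlapping genes cannot be told apart.

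The 250 bases before the start sites of Dusp1 and Dusp5 are shown because these members had the highest fitted changes of conventional dissociation over Act-Seq, described further on. The sequences are from RefSeq (GRCm38.p6), 5′ to 3′ along the gene's strand, at chr17:26508473-26508722 on the minus strand for Dusp1 and chr19:53528895-53529144 on the plus strand for Dusp5. Capitals mark matches to the cyclic AMP response element TGACGTCA, to its core TGACG on either strand, and to the CArG box bound by serum response factor.

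Dusp1: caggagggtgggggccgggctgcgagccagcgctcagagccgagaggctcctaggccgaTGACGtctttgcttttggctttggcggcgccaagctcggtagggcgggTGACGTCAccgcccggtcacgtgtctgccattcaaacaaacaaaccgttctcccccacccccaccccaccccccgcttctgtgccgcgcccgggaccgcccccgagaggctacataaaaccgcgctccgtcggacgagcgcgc

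Dusp5: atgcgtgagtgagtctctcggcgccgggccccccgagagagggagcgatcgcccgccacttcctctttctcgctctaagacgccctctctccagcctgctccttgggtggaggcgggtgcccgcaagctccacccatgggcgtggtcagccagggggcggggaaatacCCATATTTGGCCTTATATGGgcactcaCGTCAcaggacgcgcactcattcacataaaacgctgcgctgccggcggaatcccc

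Dusp1 held the full element at positions -143 to -136 from the start site and a further core at -191 to -187, and the full element contains the core on both strands. Dusp5 held the CArG boxes CCATATTTGG at -82 to -73 and CCTTATATGG at -72 to -63, and a core on the opposite strand at -55 to -51. Among 32851 RefSeq promoter windows of this length, 1.55% held the full element, 17.8% the core and 1.47% a CArG box on either strand. The same windows of Dusp6, Dusp10 and Dusp14 held none of these 3 motifs. These matches are a description of the letters in this window only.

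The all-cell table held 20679 cells and 35709950 UMIs, with 43 to 2189 cells and 116492 to 3723521 UMIs per library, and the dissociation table held 8071 cells, with 1123 to 2010 cells and 2102364 to 4309887 UMIs per library. Cell classes of the all-cell table were the authors' own, and libraries with fewer than 10 cells of a class were left out of that class, so that naive 6, with 43 cells, entered none. Endothelial cells (8 of 8 markers), microglia (9 of 9), mural cells (9 of 9), oligodendrocytes (8 of 8) and oligodendrocyte precursors (7 of 7) had their own markers highest among the classes, and astrocytes had 8 of 10. The precursors also had 6 of 6 markers of newly formed oligodendrocytes highest (4065 CPM summed) and 17150 CPM of oligodendrocyte markers. In the dissociation table newly formed oligodendrocytes were a class of their own. Mural cells also had 6 of 6 markers of vascular leptomeningeal cells highest (5244 CPM summed). The 2444 cells of the authors' neuron table are called neurons here after that label, but the markers went against it: their summed neuron markers were at 6225 UMIs per 1000000 UMIs (CPM) and their summed astrocyte markers at 17740 CPM, although 7 of the 8 neuron markers were highest in these cells. The 6206 other cells that the authors named neurons stood at 6063 CPM of neuron markers and 20120 CPM of astrocyte markers, and are kept as a class of their own, here the other neuron-class cells. In the dissociation table, 2900 cells matched a cell of the same seizure library in the all-cell table count for count, but none under the same cell name. There, 1 pair of libraries shared 1115 cell barcodes, against at most 2 for a pair in the all-cell table. The library part of the names held for both seizure libraries, and the names of the other 3 libraries could not be checked in this way. Classes of the dissociation table were rebuilt by clustering, and 1640 of the 1741 matched cells in a class of a name that the authors also use (94.2%) were in the authors' class of that name. That share leaves out the matched cells in unnamed clusters, among them 445 cells of the neuron table and 639 other neuron-class cells. The rebuilt neuron class held 25 matched neuron-table cells and 50 other neuron-class cells, while 31 neuron-table cells lay in the astrocyte class. The neurons of the dissociation table are therefore a different set from those of the all-cell table.

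Each member had its own distribution over the cell classes of the amygdala. Dusp1 was highest in endothelial cells, Dusp6 in microglia, Dusp10 in oligodendrocytes and Dusp14 in the cells of the neuron table and the other neuron-class cells, while Dusp4 and Dusp5 were near the limit of detection in every class. Over all classes together the all-cell table held 934 UMIs of Dusp1, 51 of Dusp4, 34 of Dusp5, 2397 of Dusp6, 510 of Dusp10 and 249 of Dusp14. These are counts per gene and not per length, so levels are compared between classes within a gene and not between genes.

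**Figure D1:**
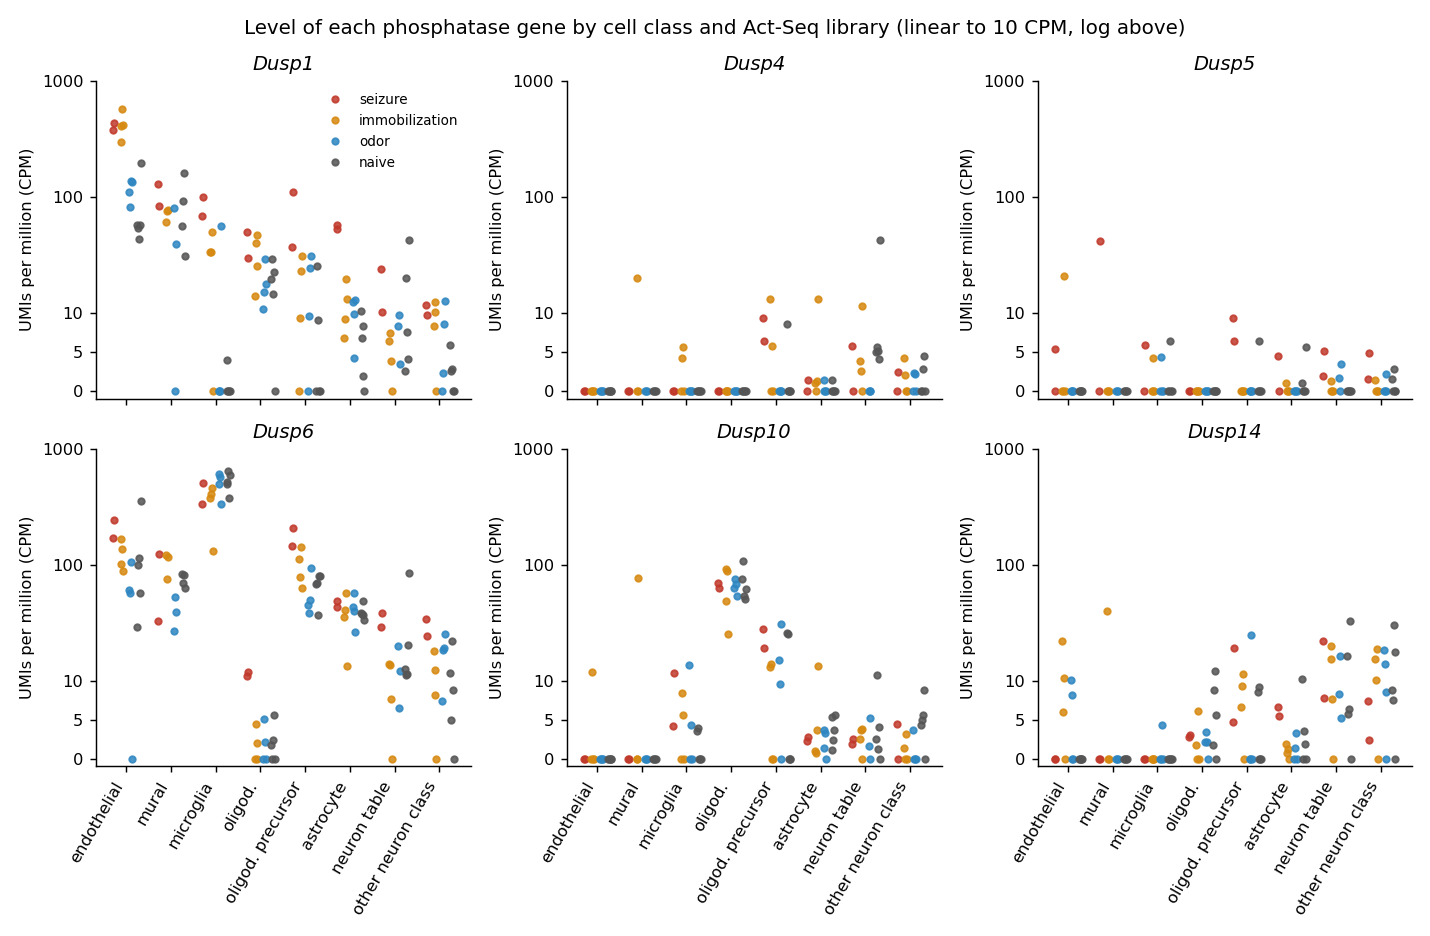
CPM of each member in every Act-Seq library with at least 10 cells of the class (points, coloured by group, n = 12 to 15 libraries a class), 1 panel per gene, on an axis that is linear to 10 CPM and logarithmic above. Dusp6 in microglia averaged 458 CPM and Dusp10 in oligodendrocytes 66.8 CPM, both above the next class in all 15 libraries, whereas the median over libraries was 0 for Dusp5 in every class and for Dusp4 in every class but neurons (3.99 CPM).

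Dusp1 averaged 226 CPM in endothelial cells over 15 libraries of all groups (lowest 43.8, median 138, highest 571), and 74.4 CPM in mural cells, the contractile cells around vessels. Endothelial cells were above mural cells in 10 of the 12 libraries that had both, although the ranges over libraries overlapped. In the naive libraries alone the order turned, with 85.9 ± 57.2 CPM in mural cells (SD, n = 4) and 81.9 ± 64.2 CPM in endothelial cells (SD, n = 5). Below them came oligodendrocytes with 24.5 CPM, microglia with 23.2, oligodendrocyte precursors with 20.8, astrocytes with 15.2, neurons with 10.8 and the other neuron-class cells with 5.84 CPM, and no neighbours in this order were separated by their ranges.

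Dusp6, the cytoplasmic ERK phosphatase, averaged 458 CPM in microglia over 15 libraries (lowest 132, median 495, highest 645). Endothelial cells followed with 119 CPM, and microglia were above them in 15 of 15 libraries. Oligodendrocyte precursors stood at 87.6 CPM, mural cells at 74.1, astrocytes at 40.3, neurons at 20.3, the other neuron-class cells at 14.4 and oligodendrocytes at 3.12 CPM. After each cell was thinned to 600 UMIs, 24.4% ± 3.19 of naive microglia had a Dusp6 UMI (SD, n = 5). Of 525 naive oligodendrocytes thinned alike 0 did. Before thinning, 281 of 623 naive microglia (45.1%) and 3 of 525 naive oligodendrocytes had a Dusp6 UMI, and library medians were 848 to 1429 UMIs per microglial cell and 1320 to 3178 per oligodendrocyte.

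Dusp10 averaged 66.8 CPM in oligodendrocytes over 15 libraries (lowest 25.4, median 63.4, highest 109) and 12.1 CPM in oligodendrocyte precursors, and oligodendrocytes were the higher in 15 of 15 libraries. Of the 510 Dusp10 UMIs in the table, 402 lay in oligodendrocyte sums of at least 10 cells. Dusp14 averaged 11.8 CPM in neurons (n = 14 libraries) and 10.7 CPM in the other neuron-class cells (n = 15), which did not differ beyond their spread. Dusp4 had a median of 3.99 CPM over the neuron libraries, of which naive 5 reached 42.6 CPM from 1 UMI, and a median of 0 in every other class. Over the pooled counts it was at 3.73 CPM in neurons (26 UMIs) and 3.86 CPM in oligodendrocyte precursors (7 UMIs). Dusp5 had at most 3.48 CPM as a class mean, in mural cells, where that value rested on a single UMI.

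Among the 16 clusters in which the authors divided the neuron table, Dusp1 was at 59.7 CPM in cluster N9 (18 UMIs in 11 cells of 7 libraries, exact 95% Poisson interval 35.4 to 94.3). The next was N12, at 24.7 CPM (9.07 to 53.8). Dusp4 was highest in the same cluster, at 23.2 CPM (7 UMIs in 4 libraries, 9.33 to 47.8), whereas Dusp6 had 0 UMIs among the 301784 of N9, which allows up to 12.2 CPM. N9 and N12 were the only clusters of the table with more summed neuron than astrocyte markers, at 23130 against 3734 CPM in N9 and 79700 against 3126 CPM in N12. Dusp6 was highest in N2, with 35.3 CPM (16.2 to 67.1), and in N15, with 30.4 CPM (18.6 to 47.0), and Dusp14 in N5, N10 and N11, at 31.3 CPM in N5, 31.1 in N10 and 29.9 in N11, whose intervals overlapped. These intervals cover counting error only, and cluster by group counts were too low for a comparison of the study's conditions.

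After seizure, Dusp1 was higher than in naive mice in endothelial cells, astrocytes and microglia, and no other member passed the test in any class. Of 13 pairs of a member and a class that could be tested, 3 were called and all 3 were Dusp1 and higher, where 0.247% of all 51784 pairs of a gene and a class were called higher. The pairs came from 4 of the 6 members, because Dusp4 and Dusp5 were too low to test in any class of the all-cell table. Passing the filter on low counts can itself depend on the groups in which a gene is high. Dusp1 was at 0 to 4.0 CPM in microglia and at 0 to 10.5 CPM in astrocytes of the naive libraries. In both classes, and also in endothelial cells, it entered the test through libraries of the other groups, so the count of calls is a description. The median log2 fold change over these 13 pairs was 1.22, beside -0.006 over all pairs, and 7 pairs had an unadjusted p under 0.05. The pairs share genes, libraries and the same filter, so the median and this count are a description too.

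In endothelial cells, which line the vessels, Dusp1 was at 382 and 432 CPM in the seizure libraries and at 58.0, 54.1, 43.8, 57.3 and 196 CPM in the naive libraries. Both seizure libraries lay above all 5 naive ones. The log2 fold change was 2.51 (SE 0.34, adjusted p = 1.99e-05, edgeR quasi-likelihood test with Benjamini-Hochberg adjustment over the genes of the class). Of these cells 70 of 167 carried a Dusp1 UMI after seizure and 27 of 270 in naive mice. After thinning to 600 UMIs per cell the share was 23.9% ± 0.424 after seizure (SD, n = 2) and 6.71% ± 8.75 in naive mice (SD, n = 5). In neurons thinned alike the shares were 0.413% after seizure and 0.160% in naive mice.

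In astrocytes Dusp1 was at 57.8 and 53.4 CPM in the seizure libraries and at 10.5, 6.78, 8.31, 1.85 and 0 CPM in the naive libraries, again without overlap. The log2 fold change was 2.99 (SE 0.39, adjusted p = 1.3e-06). In microglia, the resident phagocytes of the brain, Dusp1 was at 68.3 and 101 CPM in the seizure libraries, and in the naive libraries it was at 0 in 4 and at 4.0 CPM in 1. The naive value was 1 UMI among 860177, set against 33 UMIs after seizure, a ratio of levels of 70.4 with a 95% counting interval of 11.8 to 2860. Dusp1 in microglia was called by edgeR (log2 fold change 5.53, SE 0.95, adjusted p = 0.00013) and not by DESeq2 (adjusted p = 0.808, where the alternatives ranged from 9.31e-08 to 0.808).

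**Figure D2:**
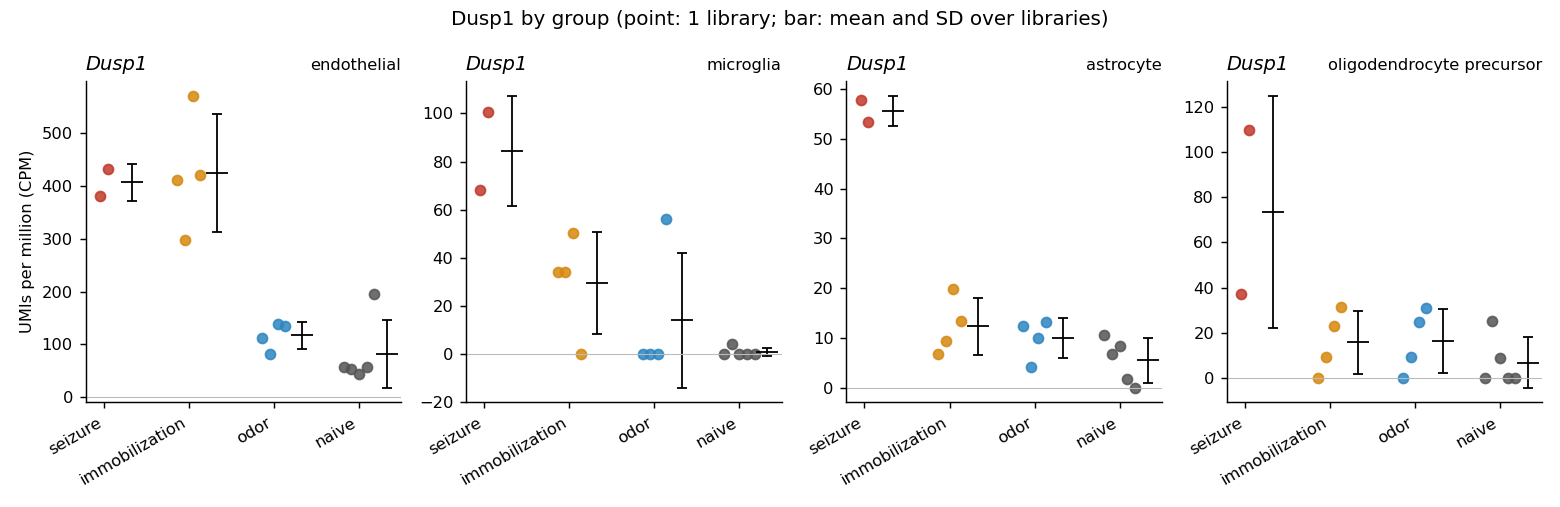
Dusp1 CPM per Act-Seq library (points) with the mean and SD over libraries (bars) in endothelial cells, microglia, astrocytes and oligodendrocyte precursors, for seizure (n = 2), immobilization (n = 4), odor (n = 4) and naive (n = 5), each panel with its own axis. In endothelial cells the seizure (382 and 432 CPM) and immobilization (298 to 571 CPM) libraries lay above all naive libraries (43.8 to 196 CPM), and in astrocytes the seizure libraries stood alone.

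Dusp1 was not called in the other classes or could not be tested there. In oligodendrocytes it was at 50.1 and 30.2 CPM after seizure and at 0 to 29.3 CPM in naive libraries (log2 fold change 0.98, SE 0.47, adjusted p = 0.966). In neurons it was at 24.1 and 10.3 CPM after seizure and at 2.53 to 42.6 CPM in naive libraries, which overlapped (log2 fold change 1.22, SE 0.61, adjusted p = 0.999). The highest naive value was that of naive 5, from a single UMI among 23479 in 10 neurons. In oligodendrocyte precursors it did not pass the filter on low counts, with 25 UMIs after seizure and 5 in naive mice, at 37.4 and 110 CPM after seizure and at 0 to 25.5 CPM in naive libraries. In mural cells it was at 131 and 83.5 CPM after seizure and at 31.4 to 163 CPM in naive libraries, and was not tested.

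Dusp6 after seizure was not called in any of the 6 classes in which it was tested, but its fitted change ran from -0.31 in microglia to 1.40 in oligodendrocyte precursors. In oligodendrocyte precursors, the dividing cells that give rise to oligodendrocytes, it was at 145 and 207 CPM in the seizure libraries and at 68.7, 70.2, 36.8, 80.6 and 79.7 CPM in the naive libraries. The groups did not overlap, and the change was 1.40 on the log2 scale (SE 0.38, unadjusted p = 0.000487, adjusted p = 0.239, edgeR). In neurons the change was 1.23 (SE 0.46, adjusted p = 0.999) and in the other neuron-class cells 1.34 (SE 0.52, adjusted p = 1.0). In microglia, its main class, it was at 333 and 504 CPM after seizure and at 379 to 645 CPM in naive libraries, which overlapped, with a log2 fold change of -0.31 (SE 0.22, adjusted p = 0.962).

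Dusp10 in oligodendrocytes was at 69.7 and 63.4 CPM after seizure and at 51.0 to 109 CPM in naive libraries, a log2 fold change of -0.07 (SE 0.33, adjusted p = 1.0). Dusp14 in neurons was at 22.2 and 7.77 CPM after seizure and at a median of 6.36 CPM over the 5 naive libraries, a log2 fold change of 0.40 (SE 0.57, adjusted p = 0.999). Seizure values lay within the range of the naive libraries for both genes. Dusp5, summed over the classes, had 17 UMIs (2.86 CPM) in the seizure libraries and 6 (0.555 CPM) in the naive libraries, and no class of it could be tested. Dusp4 summed likewise had 11 UMIs (1.85 CPM) after seizure and 16 (1.48 CPM) in naive mice.

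**Figure D3:**
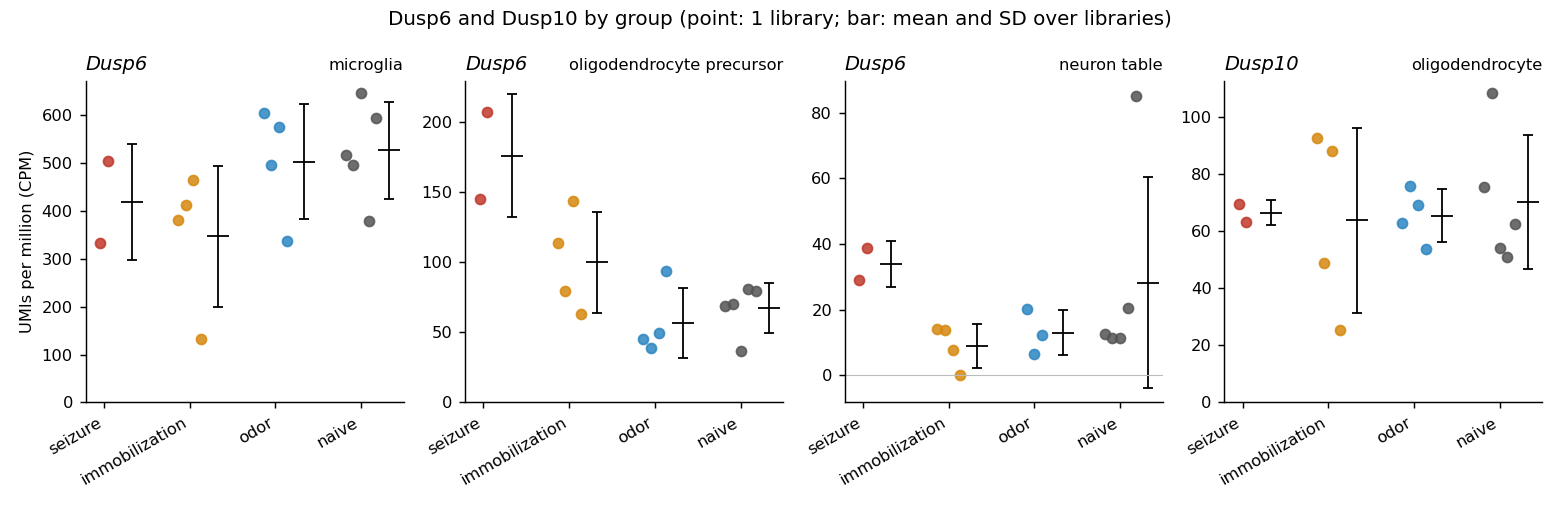
CPM per Act-Seq library (points) with the mean and SD over libraries (bars) for Dusp6 in microglia, in oligodendrocyte precursors and in neurons, and for Dusp10 in oligodendrocytes, for seizure, immobilization, odor and naive. Dusp6 in oligodendrocyte precursors was at 145 and 207 CPM after seizure, above the naive range of 36.8 to 80.6 CPM, while the seizure values of Dusp6 in microglia and Dusp10 in oligodendrocytes lay within or across the naive ranges.

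After immobilization, Dusp1 was higher than in naive mice in endothelial cells and microglia. These were 2 of the 13 tested pairs, both higher, where 0.562% of all pairs were called higher, and the median log2 fold change over the 13 pairs was 0.23 beside -0.01 over all pairs. Both pairs entered the test through libraries of the stimulated groups, as described above, so this count and median are a description. In endothelial cells Dusp1 was at 411, 298, 571 and 420 CPM in the immobilization libraries and at 43.8 to 196 CPM in the naive libraries. All 4 immobilization libraries lay above the naive range, with a log2 fold change of 2.58 (SE 0.31, adjusted p = 6.55e-07). In microglia Dusp1 was at 33.9, 34.0, 50.3 and 0 CPM after immobilization, against 4.0 CPM in 1 naive library and 0 in the other 4. The library at 0, immobilization 4, held 182 cells in all. The log2 fold change was 4.30 (SE 0.99, adjusted p = 0.00571), and the pooled counts were 27 UMIs after immobilization and 1 UMI in naive mice, a ratio of 31.7 with a counting interval of 5.23 to 1300.

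In astrocytes Dusp1 was at 6.80, 9.33, 19.8 and 13.4 CPM after immobilization and at 0 to 10.5 CPM in naive libraries, which overlapped (log2 fold change 0.72, SE 0.45, adjusted p = 0.678). Dusp6 in microglia was at 380, 412, 464 and 132 CPM after immobilization and at 517, 497, 645, 379 and 594 CPM in naive libraries, with overlap, and did not pass (log2 fold change -0.43, SE 0.19, adjusted p = 0.433). Dusp6 in oligodendrocyte precursors was at 113, 79.5, 143 and 62.9 CPM after immobilization (log2 fold change 0.68, SE 0.36, adjusted p = 0.996). Dusp10 in oligodendrocytes was at 25.4 to 92.8 CPM after immobilization (log2 fold change 0.09, SE 0.26, adjusted p = 0.993), which overlapped the 51.0 to 109 CPM of the naive libraries.

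Marker levels were taken in the same sums. Summed endothelial markers in the endothelial sums were at 24370 to 33770 CPM over the libraries. Summed mural markers in them were at 5167 and 5598 CPM after seizure, at 5045 to 7805 CPM after immobilization and at 3705 to 6615 CPM in naive libraries. Red blood cell genes were also present there, at 14730 CPM over all endothelial cells. In microglia, summed microglial markers were at 47050 to 57500 CPM and those of perivascular macrophages at 0 to 1363 CPM over the libraries. Their part in the Dusp1 results was not tested.

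After odor exposure none of the 13 pairs was called by edgeR or by DESeq2 and none had an unadjusted p under 0.05 in edgeR, where 0.253% of all pairs were called. Dusp1 in endothelial cells was at 112, 82.6, 138 and 136 CPM in the odor libraries and at 43.8 to 196 CPM in naive libraries, which overlapped (log2 fold change 0.62, SE 0.39, adjusted p = 0.891). Dusp6 in microglia was at 604, 495, 574 and 337 CPM after odor (log2 fold change 0.01, SE 0.18, adjusted p = 0.998).

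Seizure and immobilization were then set against each other directly. Dusp1 in astrocytes was the only called pair of the 13, where 0.1% of all pairs were called higher after seizure. It was at 57.8 and 53.4 CPM after seizure and at 6.80, 9.33, 19.8 and 13.4 CPM after immobilization, without overlap (log2 fold change 2.27, SE 0.38, adjusted p = 0.0005). Without the library seizure 1 the adjusted p was 0.0821 and no pair was called (range over the alternatives 3.75e-06 to 0.0821). In endothelial cells Dusp1 was at 407 ± 35.4 CPM after seizure (SD, n = 2) and 425 ± 112 CPM after immobilization (SD, n = 4), a log2 difference of -0.07 (SE 0.30, adjusted p = 1.0). In microglia it was at 84.5 ± 22.9 CPM after seizure and 29.6 ± 21.2 CPM after immobilization (log2 difference 1.23, SE 0.65, adjusted p = 0.832).

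**Figure D4:**
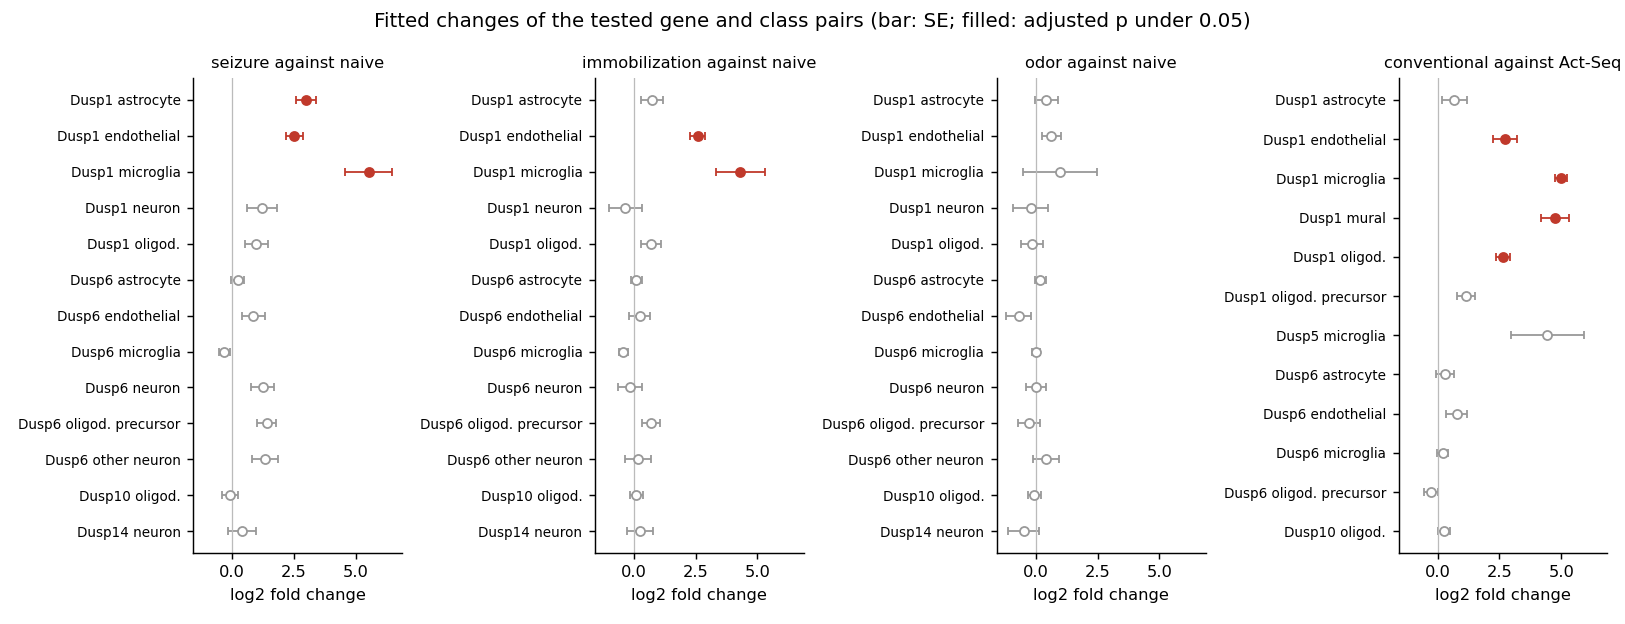
Fitted log2 fold change of each tested member and class with bars of 1 standard error, for seizure, immobilization and odor against naive and for conventional dissociation against Act-Seq, where filled points passed an adjusted p of 0.05. All filled points are Dusp1, 3 for seizure, 2 for immobilization and 4 for the dissociation.

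Whether a change differed from that in neurons was tested on differences of log2(CPM + 10) within each library, for the 9 pairs tested in both classes. The immobilization change of Dusp1 in endothelial cells exceeded that in neurons by 3.03 (SE 0.43, adjusted p = 0.00687, limma), the only called pair, where 0.0161% of all pairs were called higher. With a pseudocount of 2 in place of 10 its adjusted p was 0.189 (range over the alternatives 5.77e-05 to 0.189). Dusp1 in microglia had a 4.5-fold difference on that scale (adjusted p = 0.174), and was called without the library immobilization 4 (adjusted p = 0.0455). For seizure no pair was called by limma and 3 had an unadjusted p under 0.05 (0.00268% of all pairs called). The Dusp1 differences were 2.78 (SE 0.58, adjusted p = 0.454) in microglia, 2.06 (SE 0.54, adjusted p = 0.997) in endothelial cells and 1.74 (SE 0.59, adjusted p = 1.0) in astrocytes. For odor no pair was called by limma and none had an unadjusted p under 0.05. There 0 of all 37374 pairs were called, so the absence is not particular to the members.

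Conventional dissociation gave the highest Dusp1 levels among the class sums of either table, up to 2007 CPM in mural cells. Relative to Act-Seq, Dusp1 rose in microglia, mural cells, oligodendrocytes and endothelial cells, which made 4 of 12 tested pairs, where 1.5% of all 43493 pairs were called higher. The fit compared the 2 conventional with the 3 Act-Seq libraries with seizure as a covariate. Without either conventional library the method rests on 1 library, so calls of those fits are not counted here. The median log2 fold change of the 12 pairs was 0.95, beside -0.01 over all pairs, and 6 pairs had an unadjusted p under 0.05. The pairs share genes and libraries, and some passed the filter through the conventional libraries, so both values are a description. The fit had 2 residual degrees of freedom, so its p-values rest largely on a spread shared over the genes of the class. Very small values do not stand for a spread measured between many libraries.

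In microglia Dusp1 was at 1686 CPM in the conventional seizure library and 1126 CPM in the conventional saline library, against 77.0 and 113 CPM in the Act-Seq seizure libraries and 6.61 CPM in the Act-Seq saline library. Both conventional libraries lay above the Act-Seq ones, with a log2 fold change of 4.99 (SE 0.26, adjusted p = 1.8e-79). Between the saline libraries alone, 295 UMIs under conventional dissociation and 2 under Act-Seq gave a ratio of 170 (95% counting interval 46.7 to 1410). The share of microglia with a Dusp1 UMI was 76.3% in the conventional seizure library, 66.9% in the conventional saline library, 9.81% over the Act-Seq seizure libraries and 1.03% in the Act-Seq saline library. Thinned to 600 UMIs per cell, these shares were 55.7% in the conventional seizure library, 45.3% in the conventional saline library, 4.08% in the Act-Seq seizure libraries and 1.03% in the Act-Seq saline library. In neurons thinned alike the share was 1.82% in the conventional seizure library and 1.23% in the conventional saline library. Microglia formed 1 cluster of 771 cells at the clustering resolution used (0.8). At a resolution of 1.5 they lay in separate clusters by dissociation. One, led by P2ry12, held 14 cells of the conventional seizure library and 4 of the conventional saline library, against 147 and 112 of the Act-Seq seizure libraries and 191 of the Act-Seq saline library. The other, led by the chemokine genes Ccl4, Ccl3 and Ccl2, held 115 cells of the conventional seizure library and 176 of the conventional saline library, against 3 and 1 of the Act-Seq seizure libraries and 2 of the Act-Seq saline library. With both clusters as 1 class the log2 fold change of Dusp1 was 4.99 (adjusted p = 2.26e-78).

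In mural cells Dusp1 was at 1159 CPM in the conventional seizure library and 2007 CPM in the conventional saline library, against 90.6 and 0 CPM in the Act-Seq seizure libraries and 62.5 CPM in the Act-Seq saline library. That is a log2 fold change of 4.75 (SE 0.58, adjusted p = 5.92e-05). Dusp1 passed the filter on low counts in this class through the conventional libraries. In oligodendrocytes it was at 166 CPM in the conventional seizure library and 209 CPM in the conventional saline library, against 52.3 and 32.0 CPM in the Act-Seq seizure libraries and 19.7 CPM in the Act-Seq saline library. Its log2 fold change was 2.65 (SE 0.29, adjusted p = 4.54e-07). In endothelial cells it was at 1053 CPM in the conventional seizure library and 1911 CPM in the conventional saline library, against 366 and 440 CPM in the Act-Seq seizure libraries and 88.2 CPM in the Act-Seq saline library. The change was 2.71 on the log2 scale (SE 0.48, adjusted p = 0.0097, and 0.45 with DESeq2, in a range of 3.75e-16 to 0.45 over the alternatives). In all 3 classes the conventional libraries lay above all Act-Seq libraries.

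Dusp1 did not pass the test in astrocytes or oligodendrocyte precursors. In astrocytes it was at 20.1 CPM in the conventional seizure library and 60.8 CPM in the conventional saline library, against 56.4 and 49.0 CPM in the Act-Seq seizure libraries and 5.66 CPM in the Act-Seq saline library, and the groups overlapped (log2 fold change 0.67, SE 0.50, adjusted p = 0.61). In oligodendrocyte precursors it was at 91.9 CPM in the conventional seizure library and 146 CPM in the conventional saline library, against 42.2 and 126 CPM in the Act-Seq seizure libraries and 20.4 CPM in the Act-Seq saline library. The 2.2-fold change had an adjusted p of 0.168, and of 0.00148 without the library seizure 2 (range over the alternatives 0.00148 to 1.0). Dusp1 in the neuron clusters was too low to test, at 24.6 CPM in the conventional seizure library and 16.6 CPM in the conventional saline library and at 22.0 to 72.0 CPM in the Act-Seq libraries.

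**Figure D5:**
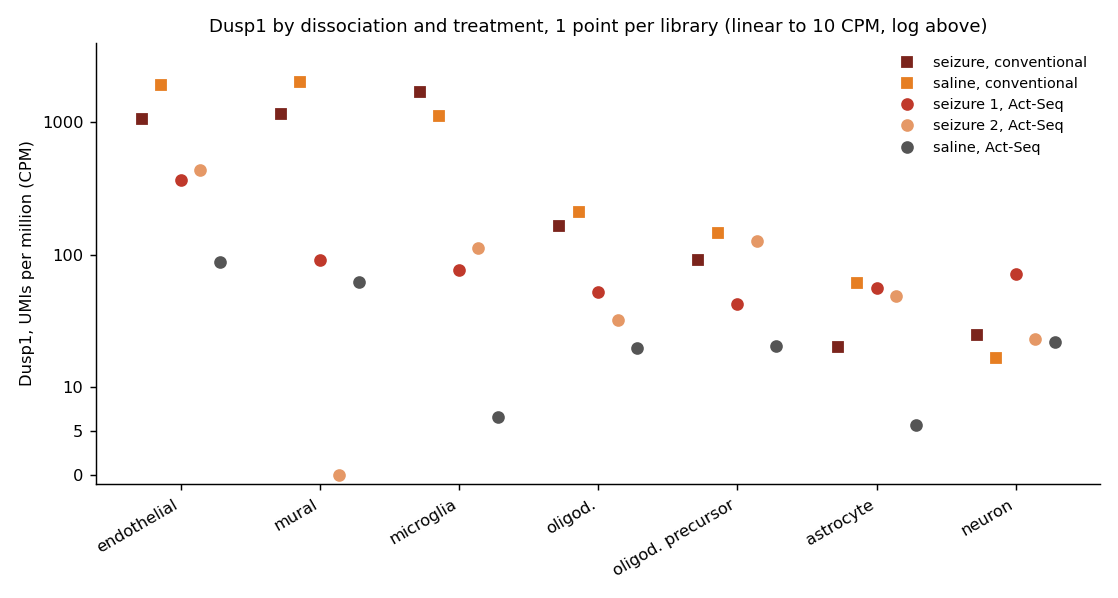
Dusp1 CPM in each of the 5 libraries of the dissociation table, by class: conventional seizure, conventional saline, Act-Seq seizure (2) and Act-Seq saline. The axis is linear to 10 CPM and logarithmic above. In microglia the conventional libraries stood at 1686 CPM (seizure) and 1126 CPM (saline) and the Act-Seq libraries at 6.61 to 113 CPM, and in astrocytes they overlapped.

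Dusp5 was tested in microglia alone, where it passed the filter on low counts through the conventional libraries. There it was at 32.4 CPM in the conventional seizure library and 53.4 CPM in the conventional saline library, against 0 and 7.06 CPM in the Act-Seq seizure libraries and 0 in the Act-Seq saline library. The values rested on 7 UMIs in the conventional seizure library and 14 in the conventional saline library, and the groups did not overlap. The log2 fold change of 4.45 (SE 1.48) did not pass, with an adjusted p of 0.0706. It was called without the filter on low counts (adjusted p = 0.000738) and without the library seizure 2 (adjusted p = 0.046), in a range of 0.000738 to 0.805.

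Dusp6 and Dusp10 were not called in their main classes, where the libraries of both dissociations overlapped. Dusp6 in microglia was at 547 CPM in the conventional seizure library and 519 CPM in the conventional saline library, against 380 and 543 CPM in the Act-Seq seizure libraries and 605 CPM in the Act-Seq saline library. The log2 fold change was 0.20 (SE 0.21, adjusted p = 0.793). Dusp10 in oligodendrocytes was at 84.3 CPM in the conventional seizure library and 74.6 CPM in the conventional saline library, against 73.9 and 64.0 CPM in the Act-Seq seizure libraries and 75.5 CPM in the Act-Seq saline library. The log2 fold change was 0.25 (SE 0.26, adjusted p = 0.895). Summed microglial markers were at 48210 CPM in the conventional seizure library and 43700 CPM in the conventional saline library and at 54630 to 60900 CPM in the Act-Seq libraries, and their part in these results was not tested.

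The seizure effect was also fitted against the saline-injected control over both dissociations. Dusp1 in microglia was the only one of 12 pairs called (log2 fold change 0.95, SE 0.26, adjusted p = 0.0372), where 0.177% of all pairs were called higher, and the call was lost in 7 of 10 alternative fits. Its adjusted p was 0.0849 without seizure 1 and 0.205 without seizure 2 (range over the alternatives 0.000348 to 1.0). The call was also lost without the Act-Seq saline library, where 1 saline library remained. The difference in the seizure effect between the dissociations rests on single libraries, since 3 of its 4 groups had 1 library each and the fit had 1 residual degree of freedom. In that fit edgeR called Dusp1 lower in 3 classes, where 0.115% of all pairs were called lower, and DESeq2 called 0. The difference of the log2 seizure effect, conventional minus Act-Seq, was -4.83 in astrocytes (SE 0.65, adjusted p = 0.023), -3.09 in endothelial cells (SE 0.60, adjusted p = 0.00466) and -3.19 in microglia (SE 0.80, adjusted p = 0.0366). The call was lost in 1 of 5 alternative fits in astrocytes, 3 of 5 in endothelial cells and 3 of 5 in microglia. Over the alternatives the adjusted p ranged from 2.88e-08 to 1.0 in astrocytes, 0.000302 to 0.43 in endothelial cells and 0.0387 to 1.0 in microglia. In endothelial cells this corresponds to 1053 CPM after seizure and 1911 CPM after saline under conventional dissociation, and to 366 and 440 CPM after seizure and 88.2 CPM after saline under Act-Seq. Dusp6 in astrocytes had a difference of -3.01 that missed the threshold (SE 0.57, adjusted p = 0.306, range 0.00226 to 1.0) and was called in 3 of 5 alternative fits. It was at 14.1 CPM after seizure and 84.9 CPM after saline under conventional dissociation, and at 43.9 and 45.0 CPM after seizure and 34.0 CPM after saline under Act-Seq.

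The rest of the MAP kinase pathway was described by gene lists, with 1 pair for each gene and class tested. The lists were chosen with earlier results of these data known. Their shares beside those of all pairs, here and below, are therefore a description and no test of the lists. Among the genes transcribed downstream of MAP kinases, after seizure 30 of 151 pairs rose and 1 fell (14 genes up), a share of 20.5% beside 0.278% of all pairs, with a median log2 fold change of 0.45. Among them Egr1, a zinc finger transcription factor, rose by 5.64 in oligodendrocyte precursors (log2, SE 0.43, adjusted p = 1.62e-14). Fos, a subunit of the AP-1 factor, rose by 4.73 in neurons (SE 0.42, adjusted p = 2.92e-11), and the orphan receptor gene Nr4a1 by 4.57 in endothelial cells (SE 0.54, adjusted p = 8.98e-07). In the fit of seizure against the saline-injected control, which pools both dissociations, 2 of 163 pairs of this list rose and 3 fell. That is 3.07% beside 0.264% of all pairs, with a median log2 fold change of -0.013 and 0 calls by DESeq2. This fit does not give the seizure effect under Act-Seq alone. After immobilization 8 of 151 pairs rose and 5 fell, a share of 8.61% beside 0.782% of all pairs. After odor exposure 1 pair rose and 1 fell, 1.32% beside 0.253% of all pairs. In endothelial cells after immobilization Nr4a1 was up by 3.57 (SE 0.54, adjusted p = 4.89e-05) and Maff, a small Maf transcription factor, by 3.41 (SE 0.38, adjusted p = 1.82e-07). Crem, a cyclic AMP-responsive factor, was up there by 2.26 (SE 0.35, adjusted p = 8.16e-05). After conventional dissociation 61 of 163 pairs rose and none fell (22 genes up), a share of 37.4% beside 2.98% of all pairs, with a median log2 fold change of 0.97. In microglia Fos was up by 8.69 (SE 0.28, adjusted p = 1.11e-204) and Egr1 by 8.49 (SE 0.23, adjusted p = 7e-273), in the fit with 2 residual degrees of freedom. The fitted seizure effect was lower under conventional dissociation for 17 of these 163 pairs and higher for 0 by edgeR, and DESeq2 called 6, in the fit with 1 residual degree of freedom.

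Of the 19 other dual-specificity phosphatases, 13 or 14 could be tested. After seizure 0 of 53 tested pairs were called by edgeR and 0 by DESeq2, with 3 at an unadjusted p under 0.05, where edgeR called 0.278% of all pairs. After immobilization 2 of 53 pairs were called, 3.77% beside 0.782% of all pairs, and 1 by DESeq2. Both were Dusp7, a cytoplasmic ERK phosphatase, which fell in 2 classes, with a log2 fold change of -1.43 in microglia (SE 0.30, adjusted p = 0.00185). After conventional dissociation 3 of 43 pairs were called, 6.98% beside 2.98% of all pairs, and 1 by DESeq2. Dusp2, a nuclear and inducible member, rose in microglia by 5.11 (SE 0.66, adjusted p = 1.04e-12). In astrocytes Dusp8 fell by 2.20 (SE 0.54, adjusted p = 0.0145) and Dusp26 fell by 2.16 (SE 0.54, adjusted p = 0.0154) on the log2 scale.

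Other feedback inhibitors of the Ras to ERK route had 1 of 50 pairs higher after seizure, Errfi1, an inhibitor of the EGF receptor, in mural cells (log2 fold change 3.76, SE 0.46, adjusted p = 0.000156). That is 2.0% beside 0.278% of all pairs. After immobilization 2 pairs rose, Spry1 in endothelial cells by 3.46 (SE 0.84, adjusted p = 0.0168) and Errfi1 in oligodendrocytes by 1.83 (SE 0.24, adjusted p = 7.25e-07). Spry2 fell in astrocytes by 0.71 on the log2 scale (SE 0.15, adjusted p = 0.00274), and the share called was 6.0% beside 0.782% of all pairs. After odor exposure Errfi1 in oligodendrocytes was called too (log2 fold change 1.11, SE 0.25, adjusted p = 0.0155, edgeR). So was Spry2 in astrocytes (log2 fold change -0.59, SE 0.15, adjusted p = 0.0356, edgeR), a share of 4.0% beside 0.253% of all pairs. Of the 48 pairs of the MAP kinases themselves 0 were called by edgeR or DESeq2 after seizure, with 2 at an unadjusted p under 0.05, and 0 after immobilization, with 6. Over all pairs 0.278% were called after seizure and 0.782% after immobilization. Of the kinases upstream of the MAP kinases Map3k6 in endothelial cells was the only one called, after immobilization (log2 fold change 2.58, SE 0.51, adjusted p = 0.00207). That is 1.15% of the pairs of its list. After conventional dissociation 1 pair of each of these lists passed: Mapk4 in astrocytes rose by 0.68 (SE 0.19, adjusted p = 0.0376) and Map2k2 in the neuron clusters fell by 1.60 on the log2 scale (SE 0.37, adjusted p = 0.000699). That is 2.44% of the pairs of the MAP kinases and 1.15% of those of the upstream kinases, beside 2.98% of all pairs. The receptor gene Erbb4 rose in the neuron clusters by 1.58 (SE 0.50, adjusted p = 0.0184), and the kinase gene Mknk2 in microglia by 1.35 (SE 0.35, adjusted p = 0.00514). In the list that holds Erbb4 1.28% of pairs were called, and in the list that holds Mknk2 4.76%. DESeq2 called 0 pairs of the lists that hold Mapk4, Erbb4 and Mknk2. Different clusters held most neurons of the dissociations, so that the Map2k2 and Erbb4 values compare different clusters. Of the 479 neurons led by Snhg11, 215 came from the conventional seizure library and 244 from the conventional saline library, and of the 301 led by Avp 48 came from the conventional seizure library and 238 from the conventional saline library. Of the 60 led by Meg3, 30 and 16 came from the Act-Seq seizure libraries and 12 from the Act-Seq saline library.

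The genes whose pattern was most like each member's were found by the correlation of log2(CPM + 10) over 116 sums of a library and a class, among 10740 genes. The sums share libraries, classes and depth, so the correlations are a description. For Dusp1 the closest were Apold1 (r = 0.76), Cgnl1 (0.73), Ier2 (0.73), Net1 (0.73) and Esam (0.72). For Dusp6 they were Ifngr1 (0.83), Lyn (0.81), Rgs19 (0.79), Entpd1 (0.78) and Akap13 (0.78), and for Dusp10 they included Tmem125 (0.87), Hapln2 (0.85), Wnt3 (0.84) and Gpr62 (0.84). The likeness was lower for Dusp5, whose closest genes were Fosb (0.55), Fos (0.45), Egr1 (0.43) and Nr4a1 (0.41), for Dusp14, led by 2810433D01Rik (0.57) and Rgs17 (0.56), and for Dusp4, led by Zfp941 (0.50).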

How the data were processed

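The deposited values were raw UMI counts in 3 tables, 1 of all Act-Seq cells, 1 of the cells the authors called neurons and 1 that compares dissociations. Per the submitters' processing notes, bcl2fastq 2.17.1.14 and STAR 2.5.0a were used with the mm10 build, while the sources used here give neither the counting tool nor the filter on cells. The members and the gene lists were chosen with earlier results of these data known.

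Libraries were the replicates. Counts were summed per library and class (at least 10 cells), scaled by TMM, filtered with filterByExpr and tested with edgeR 4.0.16 (glmQLFit, glmQLFTest) in R 4.3.3 over all genes of a class, with Benjamini-Hochberg adjustment and a threshold of 0.05. The standard error is the absolute log2 fold change divided by the square root of F. Naive, odor, immobilization and seizure libraries shared 1 fit per class, and the 5 libraries of the dissociation table another, with terms for method and seizure and, in a separate fit, their interaction. Differences between classes were tested with limma 3.58.1. CPM is UMIs of a gene per 1000000 UMIs of the class in that library. Classes of the dissociation table were clusters (scanpy 1.11.5, leidenalg 0.10.2, resolution 0.8), made without the genes of the lists and named by markers from at least 3 detected ones; cluster 0, led by Kif5a, and others stayed unnamed. No cells were removed as doublets in the main analysis. The fits were tested on simulated data in 1 to 3 classes each. Of genes changed by 2 on the log2 scale, 72.6% (73 genes, endothelial cells, 3968 genes) to 88.3% (60, neurons, 8808) were recovered for seizure against naive and 67.3% (55, endothelial cells, 5413) to 89.6% (67, astrocytes, 9953) for the dissociations, but 11.7% (77, microglia, 5733) to 38.8% (80, astrocytes, 9953) for the interaction and 24.1% (54, astrocytes, 8226) for the seizure difference from neurons. Genes named are the 6 members and, of each list, up to 5 called genes per comparison with the largest absolute change. A gene close to Dusp10 in pattern is not reported here.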

Additional observations from a re-analysis of the deposited data

Results flagged for a closer look

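Of 36 groups of 4 or 5 libraries that were checked for a library far from the others, 6 stood out. The nominal rate of the check is 5% of groups, but that rate does not hold for low counts. A library with any UMI among libraries at 0 stands out whatever its count, so the number of flags is a description. Dusp1 in endothelial cells of naive 5 was at 196 CPM (10 UMIs in 23 cells), and the other naive libraries were at 43.8 to 58.0 CPM. Dusp6 in endothelial cells of the same library was at 353 CPM (18 UMIs), and the others at 29.0 to 114 CPM. Dusp6 in its neurons was at 85.2 CPM, 2 UMIs in 10 cells, and the others at 11.4 to 20.6 CPM. The library naive 5 held 230 cells in all. Dusp1 in microglia was at 56.1 CPM in odor 4, from 2 UMIs in 34 cells, and at 0 in the other odor libraries, and it was at 4.0 CPM in naive 2, from 1 UMI in 188 cells, and at 0 in the other naive libraries. Dusp6 in oligodendrocyte precursors was lowest in naive 3, at 36.8 CPM from 4 UMIs in 40 cells, and the other naive libraries were at 68.7 to 80.6 CPM.

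For Dusp1 a difference between classes passed its test. The log2 change after immobilization in endothelial cells exceeded that in neurons by 3.033 (adjusted p = 0.00687, limma). A difference between dissociations was called by edgeR and not by DESeq2, in a fit with 1 residual degree of freedom in which 3 of 4 groups were single libraries. The log2 seizure effect under conventional dissociation minus that under Act-Seq was -4.828 in astrocytes, -3.094 in endothelial cells and -3.193 in microglia (adjusted p = 0.023 in astrocytes, 0.00466 in endothelial cells and 0.0366 in microglia, edgeR).

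In cells of the dissociation table left without a class, Dusp1 stood above the control in cluster 15, whose leading genes were Dcn, Spp1, Igf2, Pf4, Lyz2, Apod, Mrc1, Igfbp2, Ccl7 and Nupr1. Among them Pf4 and Mrc1 are perivascular macrophage markers, and Dcn and Igf2 are markers of vascular leptomeningeal cells, so the cluster names no single cell type. The level of Dusp1 was not split between these. Dusp1 was at 1580 CPM in the conventional saline library, from 44 UMIs in 16 cells, and at 0 UMIs in 18 cells of the Act-Seq saline library, with a lower bound of the counting interval of the ratio of 19.6. This sets 1 library against 1, and the interval covers counting error and no spread between libraries.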

How the results depend on the processing

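With other scaling, DESeq2, no filter on low counts, the age term, other minimum cell numbers, the replicate block, other pseudocounts or clustering, no result changed direction. After seizure, 2 or 3 of the member and class pairs were called under every alternative and 3 with any library left out, and after odor 0 under all. After immobilization DESeq2 called 1, against 2, since it gave no adjusted p for Dusp1 in microglia. Between seizure and immobilization leaving out 1 library gave 0 to 1 calls, with 0 without seizure 1. The difference from neurons after seizure had 1 call at a pseudocount of 50, against 0. After immobilization that difference had 2 calls with at least 30 cells, without libraries under 300 cells and without immobilization 4 (leaving out 1 library gave 1 to 2), and 0 at a pseudocount of 2, against 1. The dissociations gave 3 to 5 calls under other settings and 4 to 7 with 1 library left out, 7 without the conventional seizure library, against 4. For seizure against saline there were 0 calls with median-of-ratios scaling, DESeq2, no filter and without the top 5% of doublet scores. There were also 0 without seizure 1 or seizure 2. Fits without a saline or a conventional library leave 1 library of that kind, and their calls are not counted here. The interaction had 0 calls with DESeq2, against 3, and 2 to 3 under the other settings, but not always the same pairs: Dusp1 was lost in 3 of 5 settings in endothelial cells and in 3 of 5 in microglia, and Dusp6 in astrocytes was gained in 3 of 5. Leaving out a library left no residual degrees of freedom or no term to fit. Except where fewer libraries entered, the cause was not tested. Mural cells could not be fitted with at least 30 cells after seizure, or without the top doublet scores.

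Replicate numbers did not pair the libraries: deviations of same-numbered libraries correlated by -0.117 to 0.111 in astrocytes, -0.0475 to 0.0518 in microglia and -0.111 to 0.0792 in neurons. With the replicate block the calls were 3 after seizure, 2 after immobilization, 0 after odor and 1 between seizure and immobilization.

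Depth limits Dusp4 and Dusp5, which were tested in no class of the all-cell table, and small libraries limit microglia and mural cells, where 1 UMI can set a library's value.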
